A study of Mus musculus with 12 samples.

Results

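The DNA replication machinery was followed in whole mouse testes at 2 weeks of age, through 46 listed genes for origin licensing, origin firing, DNA synthesis and nucleotide supply. They were chosen by name and role, with earlier results of these data known. Each was represented by the array feature (transcript cluster) with the gene's symbol alone and the highest mean level. Of the 46 genes, 45 were measured among 22180 genes in all. The remaining gene, Rfc4, had only a cluster shared with Eif4a2 and was dropped. Expression was measured on 12 Affymetrix whole-transcript arrays, 1 per testis, in C57BL/6N mice. The groups were 3 testes with a CRISPR/Cas9 knockout of Sox3 (Sox3-KO, here KO), 3 testes in which the related gene Sox2 was placed at the Sox3 locus (Sox3-Sox2KI, here KI) and 6 wild-type testes (WT). Of the WT testes, WT 1 to WT 3 were littermates of KI mice and WT 4 to WT 6 were littermates of KO mice. Sox3 is an X-linked transcription factor gene of the SoxB1 group that is known from spermatogonia. The labels name no further allele or treatment, and do not say how many edited founders each line came from. The labels call the replicates biological.

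Chromosomes are copied once per cell cycle from many origins. The origin recognition complex marks an origin, and CDC6 and CDT1 load the ring of MCM2 to MCM7 onto it, which is called licensing. The kinase CDC7 with DBF4, together with treslin (Ticrr), TOPBP1, CDC45 and the GINS complex, then turns the ring into the active CMG helicase, which is called firing. Primase and DNA polymerases alpha, delta and epsilon copy the strands, the clamp PCNA keeps polymerases on the template, and FEN1 and LIG1 join the fragments. In the young testis, dividing spermatogonia, spermatocytes in the S phase before meiosis and the last dividing Sertoli cells use this machinery.

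Values were log2 expression levels, on which a difference of 1 is a doubling. As a rough limit of background, the 95th percentile of 1105 olfactory receptor genes lay at 5.33, and no replication gene lay under it in all arrays. Germ cell, Sertoli and Leydig cell lists had means above that limit in all arrays, while 2 of 3 epididymis genes lay under it in every array. The mean over all genes, 6.35 to 6.43, was above it too, and 6274 of all 22180 genes lay under it in every array. These levels are therefore only a weak check of the tissue label. Sox3, the targeted gene, had levels of 6.57, 6.6 and 6.65 in KO testes, 7.26, 6.75 and 6.95 in KI testes, and 7.21 to 7.36 in WT testes with a WT median of 7.28. All KO arrays were under the lowest WT array (change -0.68, limma adjusted p = 0.0161), while KI 1 was inside the WT range and KI 2 and KI 3 were under it (change of KI -0.30, adjusted p = 0.945). Where the array's probes lie within Sox3 was not known here, so neither the remaining KO signal nor the KI signal says anything of intact transcript.

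In KO testes 7 of the 45 replication genes fell against WT and none rose, and these were Ticrr, Gins1, Dbf4, Cdc45, Mcm7, Mcm3 and Pcna. They encode firing factors, subunits of the CMG helicase and the clamp. The falls ranged from 1.19-fold for Pcna to 1.56-fold for Ticrr and Gins1 (limma, adjusted p under 0.05 over 22180 genes). The 7 genes made 15.6% of the 45, against 2.34% of all genes called lower, 2.52% called higher and 4.86% called in either direction in the same comparison. All genes include dim ones that are rarely called. Of the 11090 genes above the median level of all genes, 458 were called lower and 441 higher in the same fit, a larger share. All 3 KO arrays lay below all 6 WT arrays for 16 replication genes (35.6%), against 4.59% of all genes, and above them for 1, Pola1 (2.22%), against 6.87% of all genes. The log2 change was below 0 for 37 of the 45 genes (82.2%, against 40.2% of all genes), and the median was -0.133, against 0.043 over all genes and 0.028 over genes above the median level of all genes. At an unadjusted p under 0.05, 18 were lower (40.0%, against 9.82% of all genes) and 1 was higher (2.22%, against 14.4%). In bulk tissue, fewer cells in S phase and less of these transcripts per cell cannot be told apart.

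The 7 calls depended on which arrays were used. Against their own WT littermates alone (WT 4 to WT 6) none of the 45 passed by limma, with 14 lower at an unadjusted p under 0.05 (31.1%, against 6.47% of all genes), although the median change was -0.149 and 18 genes lay below all 3 littermates (40.0%, against 7.13% of all genes). Over all genes 2 passed in that comparison, 0.00902%. None of the 45 passed without KO 1 or without KO 3, 1 (Ticrr) passed without WT 3 or without WT 5, and 2 (Ticrr and Gins1) passed without WT 1 or without WT 2. The calls over all 22180 genes dropped in the same fits, with 3 without KO 1, 2 without KO 3, 18 without WT 3, 32 without WT 5, 36 without WT 1 and 35 without WT 2, against 1078 with all arrays.

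**Figure D1:**
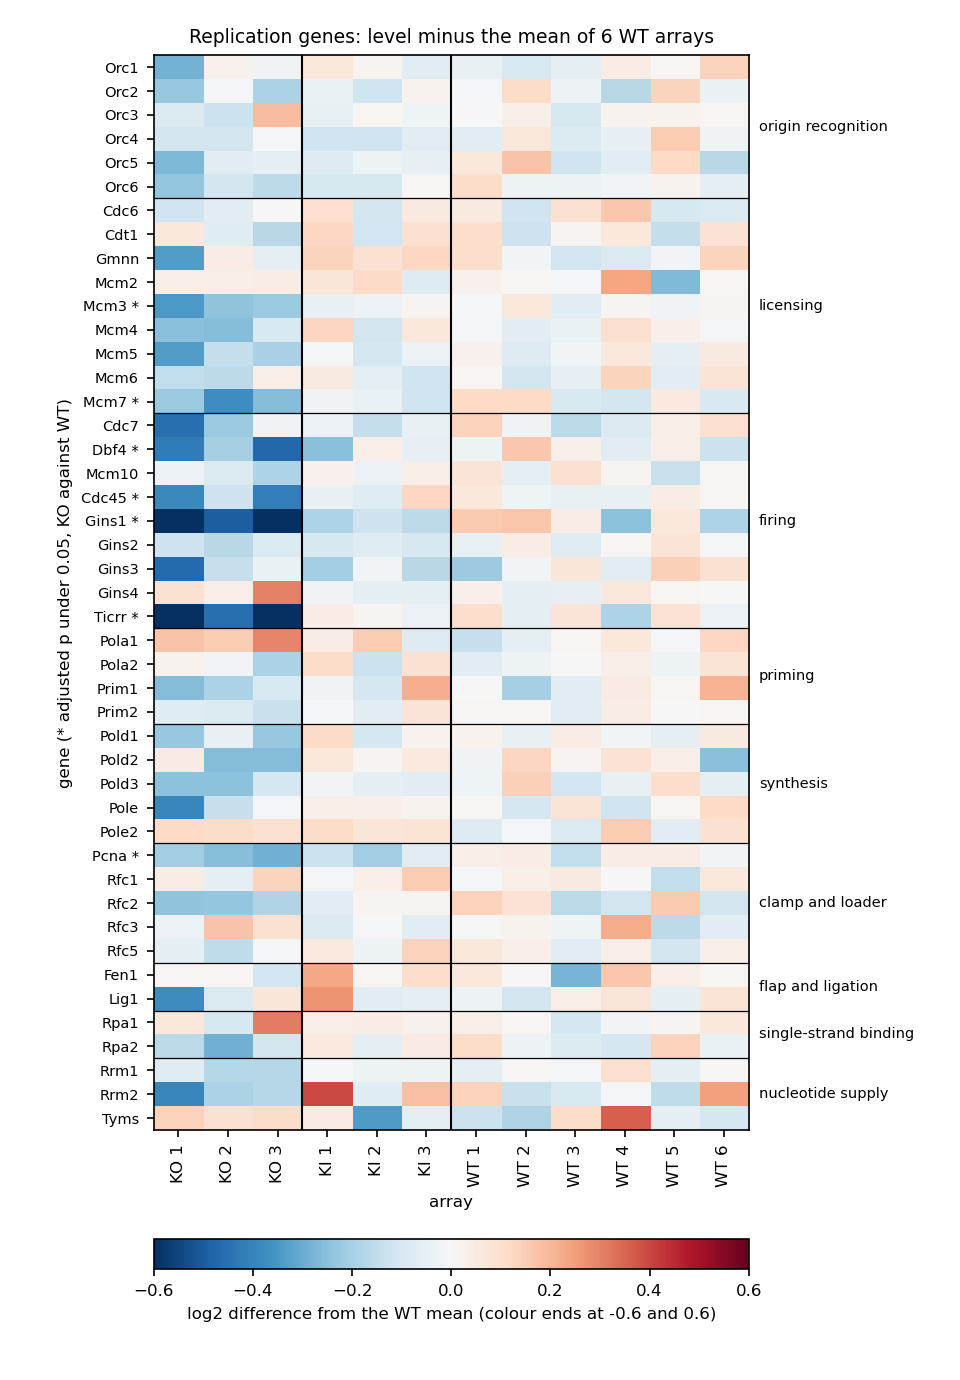
Level of each of the 45 replication genes (rows, grouped by role) in each of the 12 arrays (columns), as the log2 difference from the mean of the 6 WT arrays; blue is lower, red is higher, larger differences than the ends of the colour scale take the end colour, and an asterisk marks an adjusted p under 0.05 in KO against WT. The KO columns are mostly blue, with the darkest cells at Ticrr and Gins1, while Pola1, Pole2, Gins4, Tyms and Mcm2 lie above the WT mean in all 3 KO arrays.

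None of the 6 origin recognition genes passed in KO testes. Their log2 changes lay between -0.17 and -0.01, with a median of -0.111. Orc6, which binds DNA and helps to load MCM, had levels of 8.50, 8.63 and 8.58 in KO testes and 8.68 to 8.85 in WT testes, with a WT median of 8.72. The KO and WT arrays did not overlap, with a change of -0.17 (SE 0.06, limma adjusted p = 0.121). Orc1 (-0.09), the ATPase subunit, and Orc2 (-0.14) and Orc5 (-0.13) were negative in direction without passing. Orc3 (-0.01) and Orc4 (-0.07) were closest to 0.

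Among the 9 licensing genes the helicase subunits Mcm3 and Mcm7 fell and the loaders did not pass. Mcm3 had levels of 9.10, 9.2 and 9.22 in KO testes, 9.40, 9.41 and 9.46 in KI testes, and 9.38 to 9.51 in WT testes, with a WT median of 9.44. Every KO array lay under every KI and WT array. Its change in KO testes was -0.27 (SE 0.06, 95% interval -0.40 to -0.15, limma adjusted p = 0.032), a 1.21-fold lower level. Mcm7 had levels of 8.98, 8.83 and 8.94 in KO testes, 9.18, 9.16 and 9.08 in KI testes, and 9.09 to 9.32 in WT testes, with a WT median of 9.19. The KO arrays were again lowest, and the change was -0.29 (SE 0.07, limma adjusted p = 0.0482), a 1.22-fold lower level.

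The other 4 subunits of the ring did not pass. Mcm5 had 9.31, 9.50 and 9.45 in KO testes and 9.57 to 9.71 in WT testes, and Mcm4 had 8.78, 8.77 and 8.94 in KO testes and 8.97 to 9.13 in WT testes. Neither overlapped WT, with changes of -0.23 for Mcm5 (limma adjusted p = 0.0582) and -0.20 for Mcm4 (adjusted p = 0.11). Mcm6 had a change of -0.08, with overlapping groups. Mcm2 had 9.2, 9.2 and 9.21 in KO testes and 8.90 to 9.40 in WT testes, so the KO arrays lay in the middle of the WT range, with a 95% interval of the change from -0.16 to 0.24. No difference between subunits was tested. The loaders Cdc6 (-0.06, adjusted p = 0.683) and Cdt1 (-0.06, adjusted p = 0.715) and the CDT1 inhibitor geminin (Gmnn, -0.11, adjusted p = 0.47) had 95% intervals that included 0.

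The 9 firing genes held 4 of the 7 falls, with a median change of -0.233. Ticrr, which encodes treslin, the factor that with TOPBP1 brings CDC45 to licensed origins, had levels of 7.59, 7.95 and 7.76 in KO testes, 8.45, 8.42 and 8.37 in KI testes, and 8.22 to 8.51 in WT testes, with a WT median of 8.42. The highest KO array, KO 2, lay under the lowest WT array, WT 4, and KI arrays lay inside the WT range. Its change in KO testes was -0.64 (SE 0.09, 95% interval -0.83 to -0.45, limma adjusted p = 0.0161), and it ranked 10 by p among all 22180 genes. Gins1, a GINS subunit, had levels of 6.30, 6.55 and 6.37 in KO testes, 6.86, 6.92 and 6.89 in KI testes, and 6.80 to 7.21 in WT testes, with a WT median of 7.10. All KO arrays were lowest, the change was -0.64 (SE 0.10, adjusted p = 0.0204), and Gins1 ranked 28. WT 4 (6.80) and WT 6 (6.86), both from KO litters, had the lowest WT levels of Gins1, and against KO littermates alone the change was -0.52.

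Cdc45, the helicase cofactor that joins MCM and GINS, had levels of 7.83, 8.09 and 7.80 in KO testes, 8.17, 8.14 and 8.34 in KI testes, and 8.17 to 8.28 in WT testes, with a WT median of 8.20. KO 2 came nearest to WT but did not reach it, and the change was -0.31 (SE 0.08, limma adjusted p = 0.0423). Dbf4, the activating subunit of CDC7 kinase, had levels of 8.25, 8.47 and 8.20 in KO testes, 8.42, 8.71 and 8.62 in KI testes, and 8.54 to 8.83 in WT testes, with a WT median of 8.67. KO and WT did not overlap, the change was -0.36 (SE 0.09, adjusted p = 0.0402), and KI 1 lay below the highest KO array. The kinase gene Cdc7 itself was at 8.01, 8.24 and 8.44 in KO testes and 8.30 to 8.6 in WT testes, and its change of -0.23 did not pass (adjusted p = 0.16).

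The remaining firing genes did not pass either. Gins2 (-0.12, adjusted p = 0.206) lay below WT in all KO arrays, Gins3 (-0.21, adjusted p = 0.232) overlapped WT, and Gins4 had a positive change of 0.15 (adjusted p = 0.209). Gins4 was at 9.01, 8.96 and 9.22 in KO testes and 8.86 to 8.99 in WT testes. The 4 GINS genes, whose products form a complex with 1 copy of each, had changes between -0.64 and 0.15. Mcm10, which helps to activate the helicase, had a change of -0.10 (adjusted p = 0.391).

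**Figure D2:**
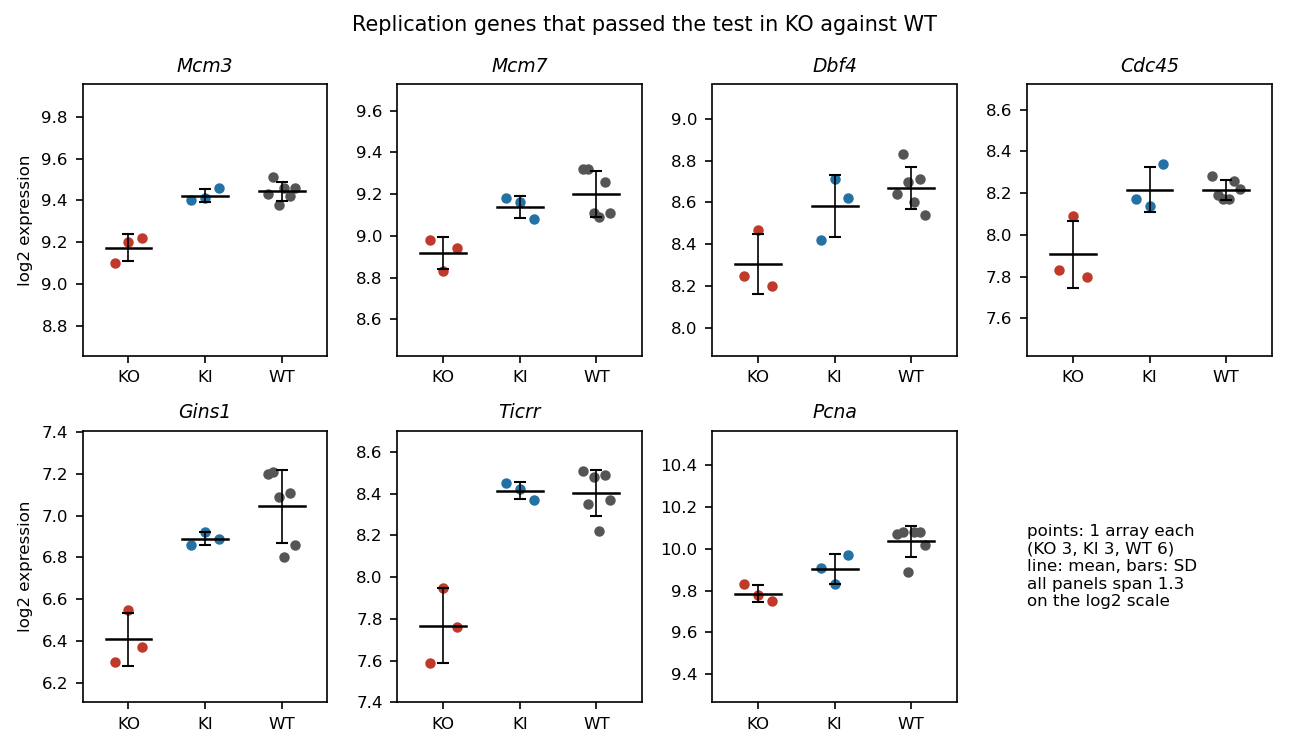
Log2 expression of the 7 replication genes that passed in KO against WT, with 1 point per array in KO (3), KI (3) and WT (6) testes, the mean as a line and the SD as bars; every panel spans the same log2 range. KO points lie under all WT points in each panel, and most KI points lie among the WT points.

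Promoter windows of genes that fell are shown because replication genes are known targets of E2F factors in other cell types. Windows run from 250 bases before to 50 after a listed start, from RefSeq on GRCm38.p6, and 37 of the 45 measured genes matched an entry by symbol. Of the 7 genes that fell, 6 had a window and Gins1 did not. Mcm7 had 2, of which the 1 with most E2F matches is shown, or the first listed on a tie. The windows of Dbf4 and Pcna are not printed. Capitals mark E2F forms and CCAAT boxes on either strand, which overlap by 1 base near the end of the Mcm7 window. Mcm3 (chr1:20820263-20820562, minus strand), Mcm7 (chr5:138171834-138172133, minus strand), Ticrr (chr7:79659946-79660245, plus strand) and Cdc45 (chr16:18811923-18812222, minus strand) read as follows, 5′ to 3′.
Mcm3: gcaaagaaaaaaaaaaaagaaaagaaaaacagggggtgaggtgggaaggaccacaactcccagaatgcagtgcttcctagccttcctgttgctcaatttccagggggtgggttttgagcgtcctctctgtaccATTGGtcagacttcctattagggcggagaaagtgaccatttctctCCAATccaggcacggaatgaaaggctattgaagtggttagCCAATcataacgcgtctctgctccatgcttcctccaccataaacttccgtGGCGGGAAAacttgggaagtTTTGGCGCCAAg
Mcm7: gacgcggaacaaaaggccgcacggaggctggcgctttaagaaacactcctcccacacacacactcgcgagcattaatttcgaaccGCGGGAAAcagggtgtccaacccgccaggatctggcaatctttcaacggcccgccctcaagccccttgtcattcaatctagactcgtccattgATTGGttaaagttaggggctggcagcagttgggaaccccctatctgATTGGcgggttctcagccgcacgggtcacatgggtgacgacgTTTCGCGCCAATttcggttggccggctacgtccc
Ticrr: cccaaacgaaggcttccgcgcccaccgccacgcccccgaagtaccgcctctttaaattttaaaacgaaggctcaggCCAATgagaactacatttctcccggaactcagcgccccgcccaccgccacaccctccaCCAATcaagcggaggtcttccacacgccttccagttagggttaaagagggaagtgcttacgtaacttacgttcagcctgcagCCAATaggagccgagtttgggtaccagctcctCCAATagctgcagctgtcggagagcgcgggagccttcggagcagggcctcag
Cdc45: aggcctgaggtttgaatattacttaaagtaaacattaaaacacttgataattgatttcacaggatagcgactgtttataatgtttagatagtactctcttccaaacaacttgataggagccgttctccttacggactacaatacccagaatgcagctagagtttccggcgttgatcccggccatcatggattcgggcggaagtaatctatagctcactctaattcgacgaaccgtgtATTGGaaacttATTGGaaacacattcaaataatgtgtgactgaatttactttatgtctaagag

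E2F was searched as TTTGGCGC, TTTCCCGC, TTTGCCGC, TTTCGCGC, TTCCCGCC and TTGGCGCC, with overlapping forms counted once. At least 1 match stood in a window of 20 of the 37 genes (54.1%), against 5.11% of 27025 genes with windows and 4.45% of all 32851 windows of the same length. Among the genes that fell it stood in Mcm3 and Mcm7 and not in the windows of Ticrr, Cdc45, Dbf4 or Pcna, that is in 2 of 6, against 18 of the 31 other replication genes. The CCAAT box stood in windows of 23 of the 37 genes (62.2%), against 41.1% of all genes, and in 5 of the 6 that fell, against 18 of the 31 others, with 4 matches in Ticrr. The GC box GGGCGG stood in 28 of the 37 (75.7%), against 38.2% of all genes. The cell cycle homology element, searched as TTTGAA, stood in 7 of the 37 (18.9%), against 20.2% of all genes. A match is a description of the letters and not a bound site.

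**Figure D3:**
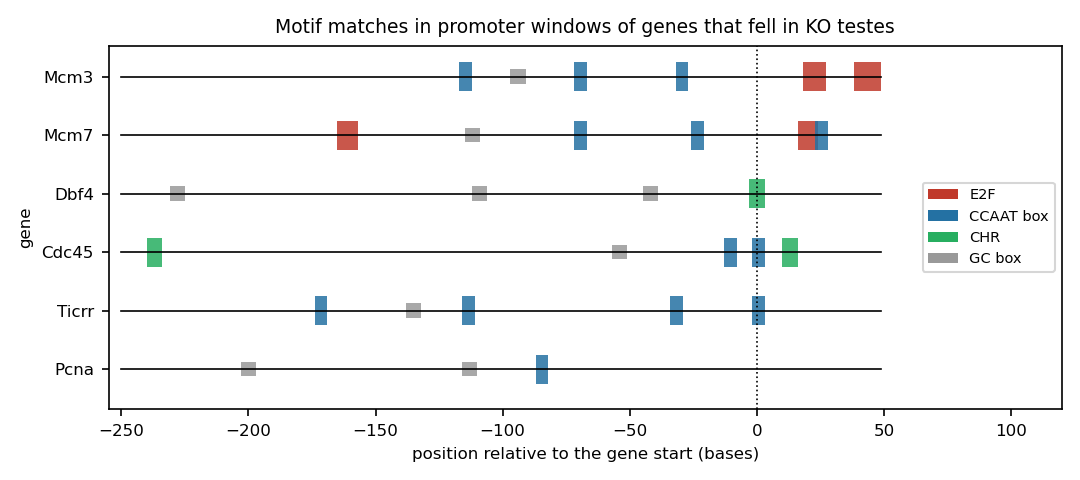
Positions of motif matches (coloured boxes) along the promoter windows of 6 genes that fell in KO testes, in bases from the listed start at 0 (dotted line). E2F matches lie in Mcm3 and Mcm7, and CCAAT boxes lie in all but Dbf4.

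The genes for priming and strand synthesis did not pass in KO testes. Pola1, the catalytic subunit of polymerase alpha, had levels of 7.42, 7.40 and 7.54 in KO testes, 7.29, 7.40 and 7.17 in KI testes, and 7.11 to 7.37 in WT testes, with a WT median of 7.25. It was the replication gene with the highest positive change, 0.20 (SE 0.08, limma adjusted p = 0.121), with KO arrays above all WT arrays. Its partner Pola2 (-0.06) and the primase subunits Prim1 (-0.18) and Prim2 (-0.10) had negative changes. Prim2 was at 9.37, 9.36 and 9.31 in KO testes and 9.38 to 9.49 in WT testes, without overlap.

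Of the polymerase delta subunits, none passed, with -0.16 for the catalytic Pold1, -0.16 for Pold2 and -0.20 for Pold3 (adjusted p = 0.111 to 0.318). Neither polymerase epsilon gene passed, with the catalytic Pole at -0.18 (limma adjusted p = 0.217) and Pole2 at 0.11 (adjusted p = 0.345). The difference between them was not tested. Pole2 stood at 7.79, 7.78 and 7.76 in KO testes, inside the WT range of 7.58 to 7.82.

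The clamp gene Pcna fell, and its loader genes did not pass. Pcna had levels of 9.83, 9.78 and 9.75 in KO testes, 9.91, 9.83 and 9.97 in KI testes, and 9.89 to 10.08 in WT testes, with a WT median of 10.07. KO arrays were lowest, with KO 1 level with KI 2 to 2 decimals, and the change was -0.25 (SE 0.06, limma adjusted p = 0.044). Rfc2 was at 7.46, 7.47 and 7.52 in KO testes and 7.54 to 7.86 in WT testes, without overlap, and its change of -0.22 did not pass (adjusted p = 0.133). Rfc1 (0.04), Rfc3 (0.08) and Rfc5 (-0.07) were close to 0.

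The flap nuclease gene Fen1 (-0.03) and the ligase gene Lig1 (-0.13) did not pass, and Lig1 ran from 8.11 in KO 1 to 8.56 in KO 3. Neither subunit gene of the single-strand binding protein RPA passed. Rpa2 was at -0.19 (limma adjusted p = 0.144) and below WT in all KO arrays, and Rpa1 was at 0.09 (adjusted p = 0.527). The difference between them was not tested. Of the nucleotide supply genes, Rrm1, the large subunit of ribonucleotide reductase, was at 9.71, 9.61 and 9.61 in KO testes and 9.73 to 9.88 in WT testes. Rrm2, the small subunit, was at 6.86, 7.06 and 7.08 in KO testes, 7.65, 7.18 and 7.43 in KI testes, and 7.10 to 7.50 in WT testes. Both lay below WT without passing, at -0.14 (adjusted p = 0.169) and -0.25 (adjusted p = 0.206). Tyms, thymidylate synthase, had a change of 0.11 (adjusted p = 0.621) with the widest spread among WT arrays of these 3 genes, 7.33 to 7.87.

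KI testes gave no call among the replication genes. None of the 45 passed against 6 WT testes by limma, and none of them had an unadjusted p under 0.05, where 1163 of all genes (5.24%) did. Over all genes none passed, 0%. The changes lay between -0.16 for Gins1 and 0.17 for Rrm2, the median was 0.004, against -0.001 over all genes, and 22 of 45 were negative (48.9%, against 50.4% of all genes). No replication gene had all KI arrays below or above all WT arrays, where 1.31% and 1.79% of all genes did. The 95% interval of each change reached at most 0.26 to either side. For Ticrr it ran from -0.18 to 0.20, for Gins1 from -0.37 to 0.06, for Dbf4 from -0.28 to 0.11 and for Cdc45 from -0.16 to 0.17. For Mcm3 it ran from -0.14 to 0.11, for Mcm7 from -0.23 to 0.10 and for Pcna from -0.27 to 0.00. Against WT littermates of KI mice alone the median was 0.005 and none passed, with 1 (Gins1, lower) at an unadjusted p under 0.05, where 4.51% of all genes were.

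**Figure D4:**
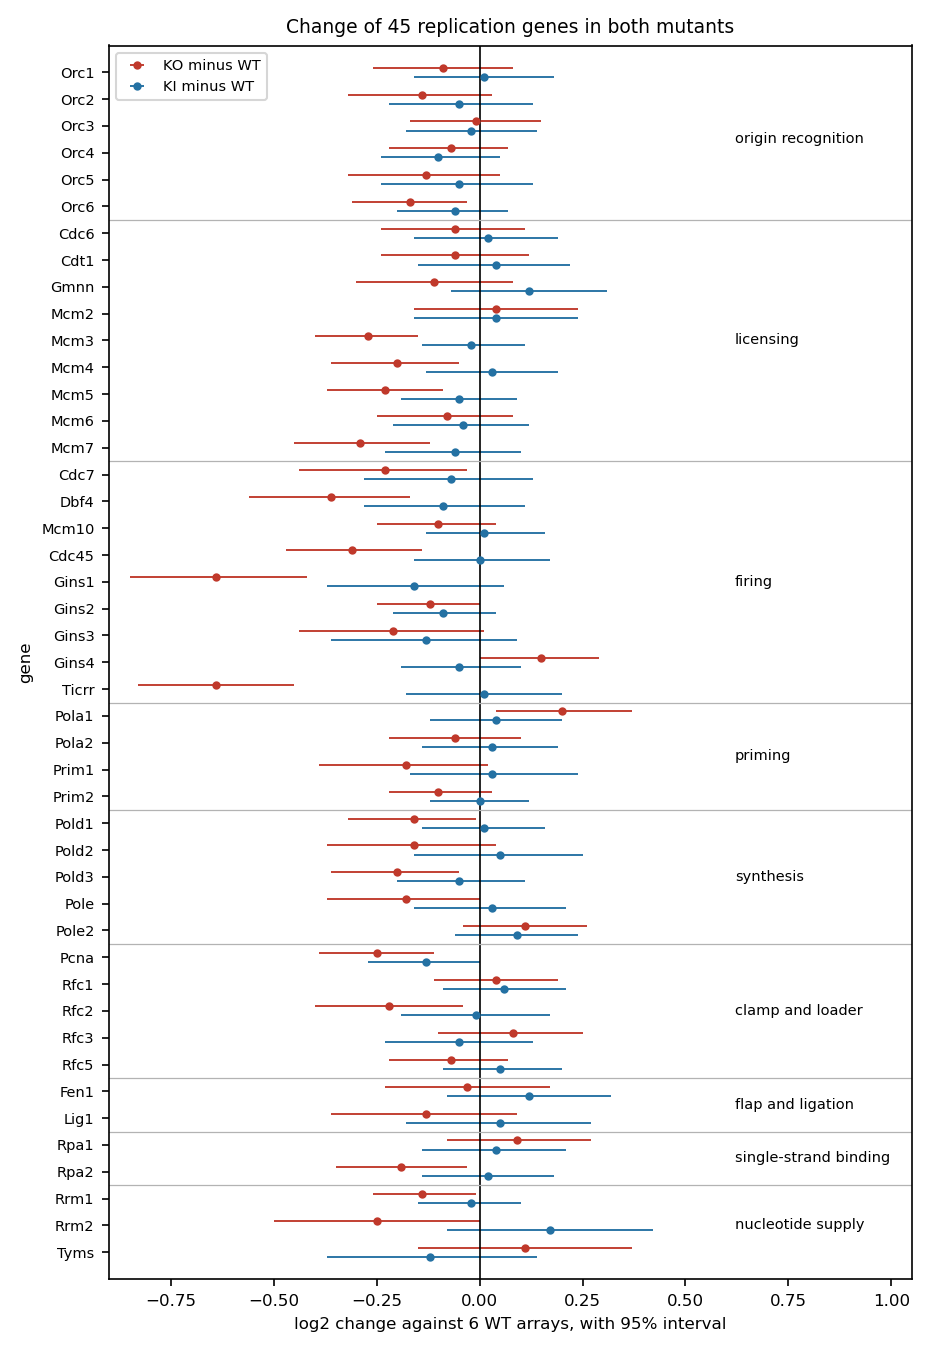
Log2 change of each replication gene against the 6 WT arrays with its 95% interval, KO above KI in each row, grouped by role. Most KO points lie left of 0 and the KI points lie around 0.

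The direct comparison of the mutants did not pass for any of the 45 genes. KI minus KO had a median of 0.116 over them, against -0.046 over all genes. By limma 13 were higher in KI and 1 was lower at an unadjusted p under 0.05, where 7.16% and 10.8% of all genes were, and over all genes none passed the adjusted test, 0%. The largest differences were in Ticrr (0.65, 95% interval 0.43 to 0.87), Gins1 (0.48, 0.23 to 0.73) and Rrm2 (0.42, 0.13 to 0.71), with limma adjusted p of 0.133 for Ticrr and Gins1 and 0.166 for Rrm2. KI arrays all lay above KO arrays for 16 of the 45 (35.6%), against 9.56% of all genes. With each mutant set against its own littermates, the difference of the changes (KO minus KI) had a median of -0.146, and none passed by limma (smallest adjusted p = 0.847), with 6 lower at an unadjusted p under 0.05 (13.3%, where 5.83% of all genes were in either direction). The falls in KO testes are thus not shown to differ from the KI values after adjustment. Without KO 2, 3 of the 45 passed in KI against KO, Ticrr, Gins1 and Cdc45, all higher in KI, and over all 22180 genes 721 passed in that fit, against 0 with all arrays.

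No replication gene passed between the WT litters. WT littermates of KI mice minus WT littermates of KO mice had a median of -0.019 over the 45 genes, and over all genes none passed by limma either, 0%. At an unadjusted p under 0.05 there was 1, Gins1 (7.2, 7.21 and 7.09 in WT of KI litters, 6.80, 7.11 and 6.86 in WT of KO litters), where 5.29% of all genes were.

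The lower levels appeared in each KO array taken alone. KO 1 lay below all WT arrays for 30 of the 45 replication genes (66.7%, against 20.7% of all genes), KO 2 for 24 (53.3%, against 14.6%) and KO 3 for 22 (48.9%, against 17.3%). KI 1 did so for 4 (8.89%, against 14.6% of all genes), KI 2 for 10 (22.2%, against 12.5%) and KI 3 for 4 (8.89%, against 13.7%). KO 3 lay above all WT arrays for 35.8% of all genes and for 5 replication genes (11.1%). The mean over all genes was 6.43 in KO 3 and 6.35 to 6.37 in the other arrays. The all-gene shares and medians for KO testes include this difference. The median difference of the 45 genes from the WT mean was -0.21 in KO 1, -0.121 in KO 2 and -0.093 in KO 3, against -0.054 to 0.016 in the KI arrays. In the WT arrays themselves it was -0.046 to 0.013.

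Beside the 45, a list of other replication genes, also chosen with earlier results of these data known, had 42 measured members. In KO testes 5 of the 42 fell and none rose, where 2.34% of all genes were called lower and 2.52% higher, and the median change was -0.104, against 0.043 over all genes. In KI testes none passed, the median was 0.03, and 1 had an unadjusted p under 0.05. Asf1b, a histone chaperone of the replication fork, changed by -0.60 (SE 0.11, limma adjusted p = 0.0295), with 8.70, 9.16 and 9.03 in KO testes and 9.39 to 9.74 in WT testes. Mtbp, a partner of treslin in origin firing, changed by -0.46 (SE 0.09, adjusted p = 0.0317), with 8.10, 8.23 and 7.96 in KO testes and 8.42 to 8.75 in WT testes. Topbp1, which works with treslin to bring in CDC45 and also acts in the checkpoint response and in meiotic silencing, changed by -0.42 (adjusted p = 0.0395). Atad5, which unloads PCNA, changed by -0.38 (adjusted p = 0.0327). Mcm8, an MCM relative known from recombination in germ cells, changed by -0.32 (adjusted p = 0.0317). All 3 KO arrays lay below all WT arrays for each of these 5 genes, where 4.59% of all genes did so. The 5 were picked for passing in the same arrays, so this adds no support.

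Markers of other processes and cell types moved in the same arrays. For comparison, 2.34% of all genes were called lower and 2.52% higher in KO testes, and the median change over all genes was 0.043. These lists too were chosen with earlier results of these data known. Of 36 mitosis genes 11 fell in KO testes, none rose and the median was -0.231. Of 19 early meiotic genes 15 fell and none rose, with list means of 7.83, 8.52 and 7.90 in KO testes, 8.54 to 8.85 in KI testes and 8.68 to 9.07 in WT testes. Of 12 pachytene genes 5 fell and none rose, with means of 6.14, 6.80 and 6.37 in KO testes, 6.99 to 7.39 in KI testes and 6.74 to 7.78 in WT testes. Of 12 Sertoli genes 2 rose and none fell, with means of 9.76 to 10.02 in KO testes, 9.64 to 9.81 in KI testes and 9.56 to 9.78 in WT testes. The differentiating spermatogonia list of 6 genes had means of 8.72 to 8.84 in KO testes, 8.88 to 8.99 in KI testes and 8.85 to 9.02 in WT testes, with no member called (median -0.177). Of 8 pan-germ genes 5 fell, and of 11 undifferentiated spermatogonia genes 3 rose and 1 fell. In the other somatic lists 1 of 5 Leydig, 1 of 6 peritubular and 2 of 5 stromal genes rose, and none of 4 endothelial, 5 macrophage or 3 epididymis genes passed. The part of these shifts in the replication results was not tested.

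**Figure D5:**
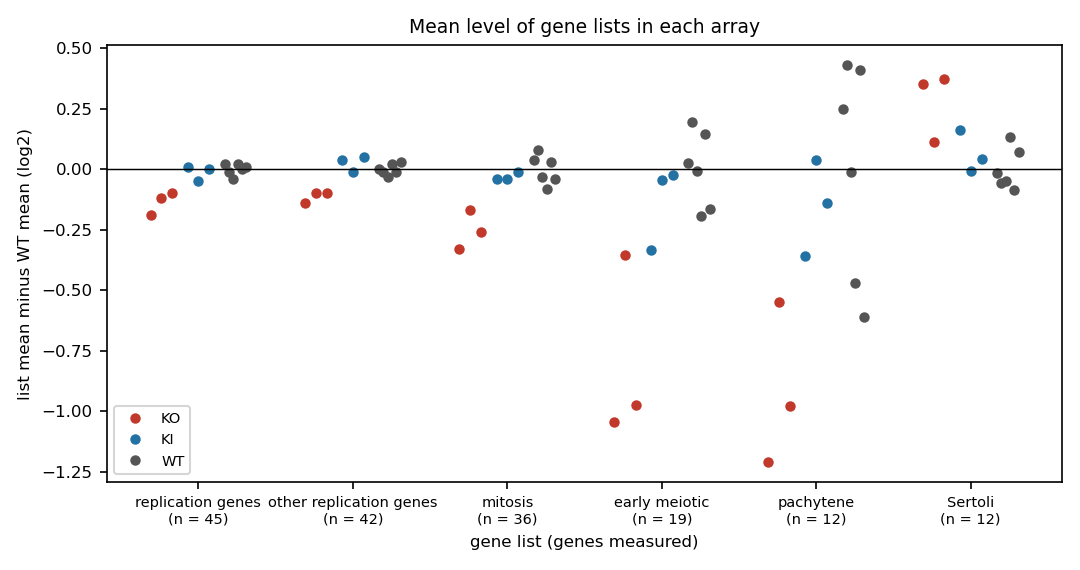
Mean log2 level of 6 gene lists in each array, minus the mean of the 6 WT arrays, for KO, KI and WT testes from left to right within each list. The KO points of both replication lists, of mitosis genes and of early meiotic genes lie below all WT points. The pachytene list spreads widely among WT testes, and the Sertoli list is higher in 2 of the 3 KO arrays than in any WT array.

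Of the 4 replication genes with a second cluster of their own, Fen1, Pole, Rpa1 and Rrm2, the cluster used was the brighter in each. The second clusters of Pole (4.71), Rpa1 (4.23) and Rrm2 (3.19) had means under the background limit. That of Fen1 had a mean of 5.97 and a KO minus WT difference of 0.00, against -0.03 for the cluster used. No sequence of the array's probes was used, so a cluster shared by near-identical copies of a gene could not be split.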

How the data were processed

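RNA of 12 whole testes was measured on Affymetrix whole-transcript arrays. The authors deposited normalized log2 levels for 41345 transcript clusters. Per the submitters' processing notes, the tools included RMA, Partek 6.6 and Affymetrix Expression Console. The annotation release and any filters are not given by the labels or notes. Where RMA has equalized array distributions, a change is relative to the other genes on the array. Clusters with 1 symbol in the platform annotation (23521) were kept, with the cluster of highest mean for each of 22180 genes.

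Groups came from the genotype labels. limma 3.58.1 (lmFit, eBayes, two-sided) in R 4.3.3 was fitted to all 12 arrays with 3 genotype groups, and with 4 label groups for comparisons within litters, with Benjamini-Hochberg adjustment over 22180 genes at 0.05 and no filter on dim genes. The fitting code was run on simulated data with independent noise for each gene. That run does not bear on how far the calls in these arrays hold. Summaries used Python 3.11.15 and pandas 2.3.3, and figures matplotlib 3.10.9. The named genes were all members of the list, Sox3, and the members of the list of other replication genes that passed. Members, lists and motifs were chosen with earlier results of these data known. The number of arrays limits precision.

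Alternatives were other normalizations, a filter on dim genes, the mean of a gene's clusters, array weights, a trended robust prior, own littermates as control, a replicate block, and each array left out in turn.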

Additional observations from a re-analysis of the deposited data

Results flagged for a closer look

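In 3 of the 45 replication genes 1 WT array stood apart from the other 5, by a gap above Dixon's 95% critical value for 6 samples. Chance alone gives about 1 in 20 such groups. Orc3, an origin recognition subunit, was 9.2 in WT 3 and 9.30 to 9.33 in the others. Pcna, the clamp, was 9.89 in WT 3 and 10.02 to 10.08 in the others, and all KO arrays (9.83, 9.78 and 9.75) lay under WT 3 as well. Rfc1, the large clamp loader subunit, was 8.80 in WT 5 and 8.94 to 9.01 in the others.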

How the results depend on the processing

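The count of 7 replication genes lower in KO testes became 3 with array quality weights (817 over all genes), 12 among genes above the median level (11 lower and Pola1 higher) and 0 against own WT littermates. With 1 array left out it ranged from 0 (without KO 1 or KO 3) to 7. Over all genes the 1078 calls became 2459 among genes above the median level, 2048 with a trended robust prior and 2 against own littermates, with 2 to 2323 when 1 array was left out. For KI against KO, 1 replication gene (Ticrr) passed among genes above the median level and 1 with the trended prior, and 0 to 3 with 1 array left out. All genes tested gave 57 (of 11090), 5 and 0 to 721 in the same fits. The KI minus KO median was 0.101 to 0.157 with 1 array left out. KI against WT gave 0 replication genes under all 17 alternatives, and WT litters gave 0, with 0 to 50 over all genes when 1 array was left out. Over the 16 alternatives Ticrr passed in 13, Gins1 in 11, Mcm3 in 9, Cdc45 and Dbf4 in 8 each, Mcm7 in 7 and Pcna in 6. The KO change stayed negative for each of these 7 genes, which were picked for their falls. All their KO arrays lay below all WT arrays, so leaving arrays out or using own littermates could not reverse the sign. The replicate block gave 0 replication genes for KI against KO and, with own littermates as control, 0 for KI against WT, as did the fits without it. The labels do not say whether same-numbered arrays were paired in any way. Correlations of their deviations were -0.035 to 0.139, looked at only for KI with WT littermates of KI mice and for KI with KO. Some of these fits used fewer genes or arrays, while those with array weights or the trended prior used the same ones. The cause of these shifts was not tested.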
